A study of Mus musculus with 5 samples.

Results

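The mouse mitochondrial genome was followed through Surface-seq, a sequencing assay of RNA on membrane-coated nanoparticles (MCNPs), which are polymer particles wrapped in purified cell membrane. All listed genes whose chromosome is chrM were taken as members, which gave 37 of 55385 genes, namely 13 mRNA, 22 tRNA and 2 rRNA genes. The membrane came from EL4, a line of mouse lymphoma cells that is cultured in suspension, and every library shares this line. The treatment text of the labels describes ethynyl-uridine labelling for imaging of fixed cells, which the methods do not give as a step of Surface-seq. Libraries A1, A2 and A3 were made by variation A, in which RNA was taken from the finished MCNPs with phenol and chloroform, end-repaired with polynucleotide kinase and given both adaptors in solution. Libraries B1 and B2 were made by variation B, in which the 3′ adaptor was ligated while the RNA still sat on the MCNPs, which favours RNA that faces outward, and the RNA was purified afterwards. The comparison asks which membrane-associated RNAs are counted more by the protocol that enriches for outward-facing RNA. Every step that differs between the protocols goes with the variation, and their parts cannot be told apart. Before the membranes were pelleted, the cell lysate was spun to take out intact cells, nuclei and organelles, mitochondria among them. RNA of whole EL4 cells was not analysed here, so no value is relative to the level in the cell. In such bulk libraries, fewer particles that carry an RNA and less of it on each cannot be told apart.

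The mitochondrial genome is a small circular DNA inside the organelle. Both strands are copied into long transcripts, in which tRNAs stand between most of the mRNAs and rRNAs. The tRNAs are cut out by RNase P at their 5′ ends and by the enzyme ELAC2 at their 3′ ends, and this frees the neighbouring mRNAs and rRNAs, which is known as the tRNA punctuation model. The tRNAs then receive the bases CCA at their 3′ ends, which the genome does not encode. The mRNAs encode core subunits of the respiratory chain and of ATP synthase, and the rRNAs build the mitochondrial ribosome. In these annotations 28 genes lie on the plus strand and 9 on the minus strand, the latter being 8 tRNA genes and mt-Nd6. Neighbours lie close together: 16 genes share at least 1 base with another mitochondrial gene. Of the 22 tRNA genes, 18 overlap their neighbours or lie within 3 bases of them on both sides. The 18 include mt-Tf, the first annotated gene, which was judged by the gene after it alone.

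The mitochondrial tRNAs called higher in variation B are the members with the largest fold changes among those with counts in both variations, together with mt-Tf, so their gene sequences are shown first. They were read from the GENCODE M21 transcripts of GRCm38 and are printed 5′ to 3′ on the strand of the gene, without the added CCA. Capitals mark the anticodon, which was sought in a loop and stem among triplets that decode the named amino acid under the vertebrate mitochondrial code.
mt-Tv, valine, chrM:1025-1093, plus strand: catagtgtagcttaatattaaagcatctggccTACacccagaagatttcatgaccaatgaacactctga
mt-Ts2, serine, chrM:11613-11671, plus strand: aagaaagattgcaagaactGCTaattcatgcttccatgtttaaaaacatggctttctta
mt-Tq, glutamine, chrM:3772-3842, minus strand: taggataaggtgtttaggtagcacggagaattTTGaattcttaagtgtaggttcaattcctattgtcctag
mt-Tc, cysteine, chrM:5192-5257, minus strand: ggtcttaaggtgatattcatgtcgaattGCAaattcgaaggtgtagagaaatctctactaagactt
mt-Tp, proline, chrM:15356-15422, minus strand: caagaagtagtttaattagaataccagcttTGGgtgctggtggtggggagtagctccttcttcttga
mt-Tl1, leucine, chrM:2676-2750, plus strand: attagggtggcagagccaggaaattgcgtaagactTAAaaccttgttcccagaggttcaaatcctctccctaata
mt-Ti, isoleucine, chrM:3706-3774, plus strand: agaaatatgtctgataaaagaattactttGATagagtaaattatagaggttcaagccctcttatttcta
mt-Tf, phenylalanine, chrM:1-68, plus strand: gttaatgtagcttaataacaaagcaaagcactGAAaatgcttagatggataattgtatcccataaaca
These genes are 59 to 75 bases long. The shortest is mt-Ts2, a serine tRNA that is known to lack the D arm other tRNAs have. Both strands of the genome are represented.

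Between 1187117 and 4502174 reads were counted on genes in the variation A libraries, and 21862003 and 22980172 in those of variation B, so a value in variation B rests on more reads. A count of 3, taken as the floor of detection, equals 0.568 normalised CPM (counts per 1000000 counts, after scaling by TMM, edgeR's trimmed mean of M values) over the pooled variation A libraries. Of the 10 genes fixed as markers of T lymphocytes, 9 to 10 had counts in each library, and they summed to between 389 and 1849 CPM, while no list of B cell, myeloid, erythroid, epithelial or fibroblast markers passed 5.79 CPM. Library A1 stood apart from A2 and A3 in mitochondrial rRNA, and the class differences are also given without it, as are the fold changes it moves most. The labels do not say that the libraries of a variation came from separate cultures, so p-values measure only the spread between these libraries.

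All 3 RNA classes were counted on the membrane particles, and tRNA was the class whose share differed by the largest factor between the variations (the plot of class shares). Mitochondrial genes together took 1.49%, 0.122% and 0.138% of all counts in the variation A libraries, in the order A1 to A3, and 2.05% and 2.04% in B1 and B2. For tRNA genes the share was 0.00591% in A1 (95% Wilson interval 0.00500 to 0.00699), against 0.00773% for A2 (0.00696 to 0.00859) and 0.00868% for A3 (0.00715 to 0.0105). In B1 and B2 they took 0.492% (0.489 to 0.495) and 0.389% (0.386 to 0.391). Each tRNA share in variation B lay above each one in variation A by more than the counting error, and so did each mRNA share.

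The mRNA genes took 0.0696%, 0.0365% and 0.0398% in variation A and 0.191% and 0.203% in variation B. For rRNA genes the groups overlapped. Their share was 1.41% in A1, close to 1.36% in B1 and 1.45% in B2, whereas it was 0.0774% in A2 and 0.0898% in A3. Over libraries, the means differed by 0.433 percentage points for tRNA, 0.149 for mRNA, 0.880 for rRNA and 1.46 for all mitochondrial genes, each higher in variation B. Without A1 the differences were 0.432, 0.159, 1.32 and 1.91. With library totals scaled by TMM the tRNA difference was 0.224 percentage points of the scaled total, the mRNA difference 0.0351, the rRNA difference 0.122 and that of all mitochondrial genes 0.381. With 3 libraries against 2, a two-sided exact permutation test cannot go below p = 0.1. The exact test gave p = 0.1 for tRNA and for mRNA, 0.2 for all genes and 0.3 for rRNA, and adjusted over these 4 shares 0.2, 0.2, 0.267 and 0.3. The methods name no molecular identifiers, so a read is not always a separate molecule, and the intervals cover counting error only.

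**Figure D1:**
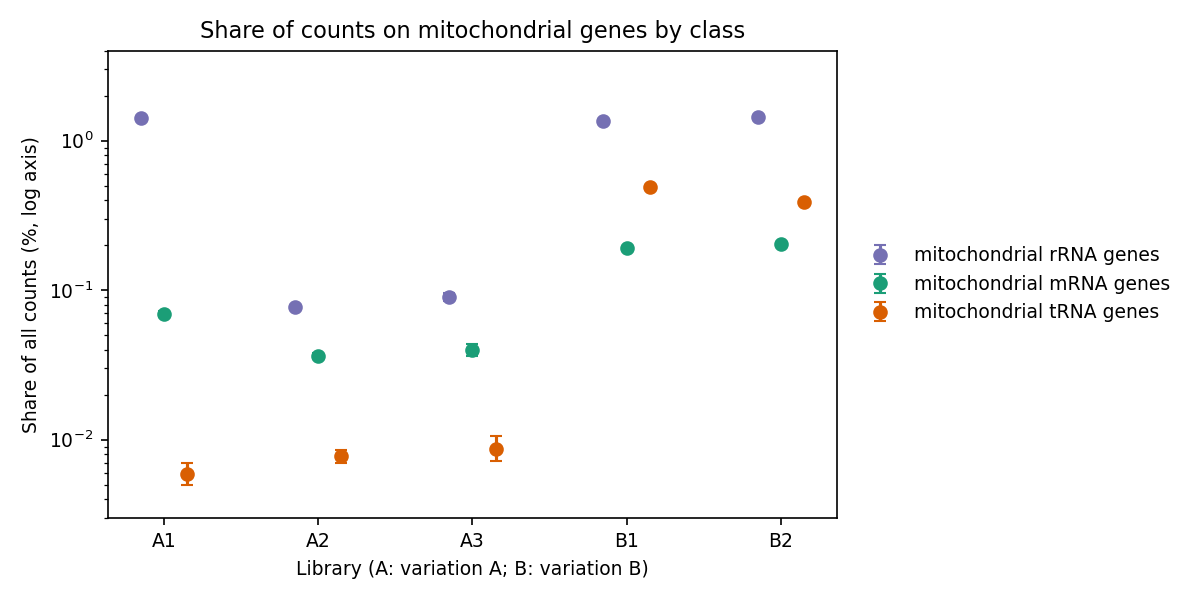
Share of all counts on mitochondrial rRNA, mRNA and tRNA genes (percent, log axis) in each library, with 95% Wilson intervals that are mostly smaller than the points. The tRNA points lie at 0.00591% to 0.00868% in A1 to A3 and at 0.389% to 0.492% in B1 and B2, and the rRNA point of A1 (1.41%) lies beside those of B1 and B2.

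Within the mitochondrial genome the balance between classes differed as well, and a ratio inside a library does not depend on the scaling between libraries. The counts on tRNA genes were 0.0849, 0.212 and 0.218 times those on mRNA genes in variation A. In B1 and B2 they were 2.57 and 1.91 times the mRNA counts, so tRNA outnumbered mRNA in both variation B libraries and in none of variation A. The mean log2 ratio was -2.66 ± 0.77 in variation A (SD, n = 3) and 1.15 ± 0.30 in variation B (SD, n = 2), a difference of 3.81 (two-sided exact permutation p = 0.1, which no result can go below, and 0.4 adjusted over 4 ratios). Every alternative tried for this ratio kept variation B higher. The smallest difference was 2.38, by the median of the genes of each class, followed by 2.78 without overlapping genes and 2.79 without the most counted gene of each class, and without A1 it was 3.37.

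The ratio of rRNA to mRNA was nearly equal in the variation B libraries and spread widely in variation A. It was 7.13 in both B1 and B2, and 20.3 in A1, 2.12 in A2 and 2.26 in A3. The difference of the mean log2 ratios was 0.63 (exact permutation p = 0.8), and without A1 it was 1.70, without A2 0.074 and without A3 0.12. The small-subunit rRNA mt-Rnr1 was counted at 0.954, 0.561 and 0.618 times the large-subunit rRNA mt-Rnr2 in variation A, and at 0.597 and 0.627 times it in variation B. Here A1 lay apart and the other 4 libraries lay together (difference of mean log2 ratios -0.18, exact permutation p = 0.9, and 0.056 without A1). Genes on the minus strand had 0.00296 times the counts of plus-strand genes in A1, 0.0859 and 0.0789 times in the other two of variation A, and 0.0566 and 0.0469 times in variation B (difference of mean log2 ratios 0.92, exact permutation p = 1, and -0.68 without A1), and the counting did not use the strand of a read.

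Gene by gene, the counts were fitted with edgeR over all genes, and a gene was called at a Benjamini-Hochberg adjusted p under 0.05 with a fold change above 2. Of 10287 genes tested, 11.0% were called higher in variation B and 12.4% lower. Among the mitochondrial genes 19 passed the filter on low counts, 10 were called higher and 0 lower, and no alternative, DESeq2 included, called any lower. At an unadjusted p under 0.05 the number lower was 0 as well. Their median log2 fold change was 1.63, against 0.045 over all genes tested. The 10 were 8 tRNAs and 2 mRNAs. Of the 10 tested tRNAs, 9 had under 10 counts in at least 1 variation A library and 6 in all 3, so most passed the filter through variation B, where they are high, and their counts of calls are a description. With at least 10 counts in every library, 1 tRNA was left and was not called. Without A1, 21 passed and 15 were called higher, where 20.8% of all genes were. Without A2 the number was 7 (3.46% of all genes) and without A3 8 (3.57%), while it was 4 without B1 (1.92%) and 5 without B2 (1.55%). Of the 18 that did not pass with all libraries, 15 had 0 counts in every library and 3 tRNAs had few.

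**Figure D2:**
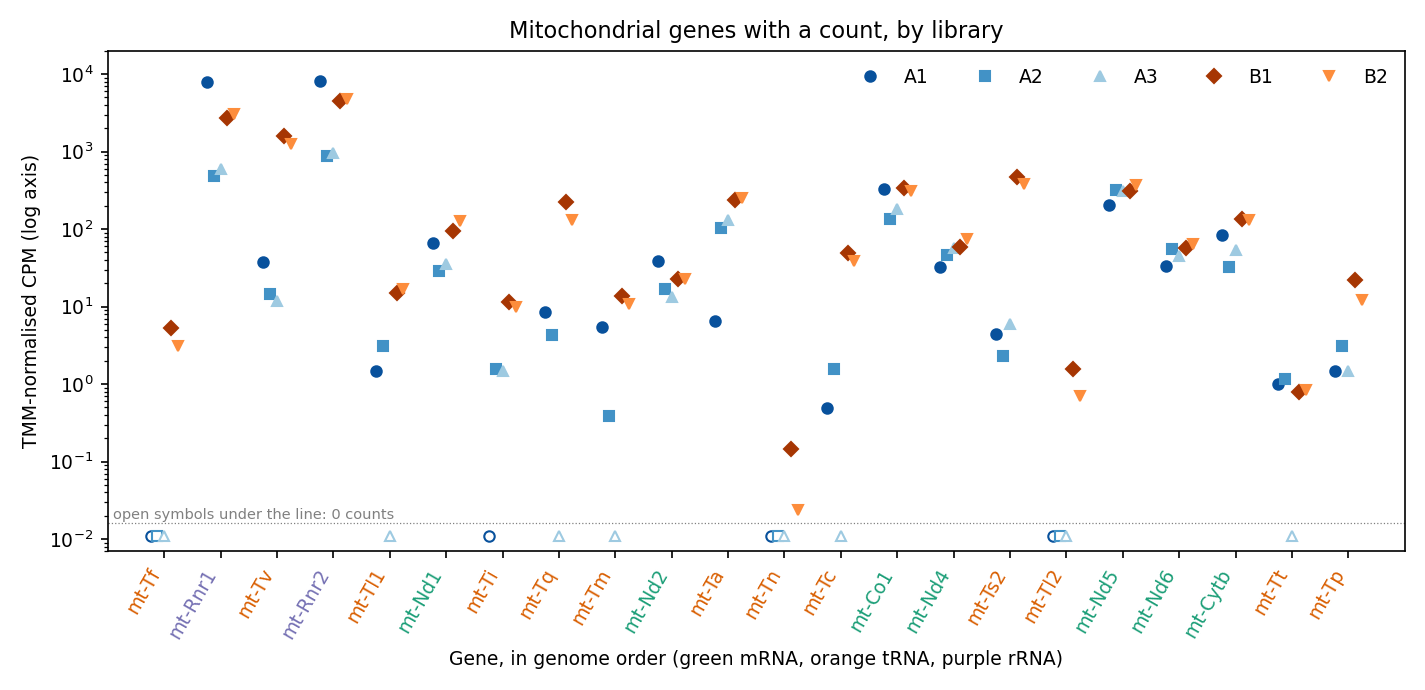
TMM-normalised CPM (log axis) of the 22 mitochondrial genes with a count in at least 1 library, in genome order, with open symbols under the dotted line for libraries with 0 counts. The variation B symbols of most tRNAs lie well above those of variation A, for example 1566 and 1253 against 11.8 to 38.0 for mt-Tv, while those of the mRNAs differ less, for example 94.7 and 127 against 29.1 to 65.7 for mt-Nd1.

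Among genes with counts in both variations, the largest differences belonged to the serine tRNA mt-Ts2 and the valine tRNA mt-Tv. Counts for mt-Ts2 were 9, 6 and 4 in variation A (A1 to A3) and 19476 and 16127 in variation B (B1 and B2), or 4.45, 2.33 and 5.90 against 473 and 380 normalised CPM. The groups did not overlap, and the log2 fold change was 6.81 (SE 0.43, edgeR adjusted p = 0.00028). Counts for mt-Tv were 77, 37 and 8 against 64428 and 53130, or 38.0, 14.3 and 11.8 against 1566 and 1253 normalised CPM. Its log2 fold change was 6.0 (SE 0.56, edgeR adjusted p = 0.000668), and without A1 it was 6.81. Both kept their call in all 15 alternatives in which they were tested, including a scaling to the mitochondrial total. With at least 10 counts in every library neither was tested. Since mt-Ts2 had under 10 counts in each variation A library, its calls are a description and no independent support.

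The gene for mt-Tv lies directly between mt-Rnr1 and mt-Rnr2 with no base in between, and the valine tRNA is known as a structural part of the mitochondrial large ribosomal subunit in some mammals. Its counts per base were 0.0822, 0.394 and 0.275 times the mean of the flanking rRNA genes in A1, A2 and A3. In B1 and B2 they were 7.96 and 5.84 times that mean. As counted, the tRNA thus lay below its neighbours per base in the 3 variation A libraries and above them in both of variation B. Reads that lay over several genes were not counted, and mt-Tv is far shorter than the rRNA genes it adjoins. The part of such reads in these ratios was not tested. The ratio was lowest in A1, which had the most rRNA counts per base of the 3 variation A libraries.

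The glutamine tRNA mt-Tq and the cysteine tRNA mt-Tc, both on the minus strand, followed. Counts for mt-Tq were 17, 11 and 0 in variation A and 9095 and 5490 in variation B, or 8.40, 4.26 and 0 against 221 and 129 normalised CPM. Counts for mt-Tc were 1, 4 and 0 against 2021 and 1631, or 0.494, 1.55 and 0 against 49.1 and 38.5. The variation A values of mt-Tc rest on at most 4 reads, and it passed the filter through variation B alone, so its test is no independent support. Log2 fold changes were 5.12 (SE 0.60, edgeR adjusted p = 0.00171) for mt-Tq and 5.56 (SE 0.54, edgeR adjusted p = 0.000766) for mt-Tc, and both groups were apart. Without A1 that of mt-Tq was 5.84, and without A2 that of mt-Tc was 6.93.

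Called with smaller differences were the isoleucine, leucine and proline tRNAs. The isoleucine tRNA mt-Ti had 0, 1.55 and 1.48 normalised CPM in variation A and 11.5 and 9.90 in variation B (log2 fold change 3.50, SE 0.74, edgeR adjusted p = 0.0146). For mt-Tl1, which reads the UUR leucine codons, the values were 1.48, 3.10 and 0 against 14.9 and 16.9 (3.01, SE 0.57, edgeR adjusted p = 0.0102). The proline tRNA mt-Tp had 1.48, 3.10 and 1.48 against 21.7 and 12.2 (2.94, SE 0.52, edgeR adjusted p = 0.00827). None of the 3 overlapped between the variations, and none had more than 8 reads in a variation A library. They too passed the filter through variation B alone, so their tests are no independent support. Without B1 all 3 calls were lost, with adjusted p of 0.0847 for mt-Ti, 0.0601 for mt-Tl1 and 0.079 for mt-Tp. Without B2 it was 0.0923 for mt-Ti and 0.0945 for mt-Tl1, while mt-Tp kept its call (0.034). Without A2 the log2 fold changes were 4.83, 3.93 and 3.57 for mt-Ti, mt-Tl1 and mt-Tp, and without A1 that of mt-Ti was 2.91. Scaled to the mitochondrial total those of the 3 genes were 1.50, 1.43 and 1.22. None was called on that scale (edgeR adjusted p = 0.522, 0.493 and 0.552).

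The phenylalanine tRNA mt-Tf, the first gene of the annotated genome, had 0 counts in all of variation A and 219 and 130 in B1 and B2. Its variation B mean of 4.19 normalised CPM was at least 7.39-fold higher than the floor of 3 counts over the variation A group. It passed the filter through variation B alone, so its test is no independent support. The edgeR test called it (adjusted p = 0.0205), and the call was lost without A2 (0.0654), without B1 (0.106) and without B2 (0.0874). A leucine tRNA for the CUN codons, mt-Tl2, also had 0 counts in variation A and 64 and 30 in variation B, a mean at least 1.99-fold above the same floor, and did not pass the filter. The asparagine tRNA mt-Tn had 0 in variation A and 6 and 1 in variation B, and mt-Tt, for threonine, had 2, 3, 0, 32 and 36 across the 5 libraries. These amount to 0 to 1.56 normalised CPM, and for mt-Tt the variations overlapped.

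Tested but not called were the alanine tRNA mt-Ta and the methionine tRNA mt-Tm, and both calls depended on A1 and on the settings. The alanine tRNA had 6.42 normalised CPM in A1, 103 in A2 and 131 in A3, and 234 and 252 in B1 and B2. Its log2 fold change was 1.63 (SE 0.84, edgeR adjusted p = 0.179), and without A1 it was 1.20 with an adjusted p of 0.000204 and a call. With all libraries it was called by library totals (adjusted p = 0.02). The methionine tRNA, which serves both initiation and elongation in mitochondria, had 5.43, 0.388 and 0 normalised CPM in variation A against 13.7 and 10.7 (log2 fold change 2.43, SE 0.81, edgeR adjusted p = 0.0605). Of the variation A libraries only A1, with 11 counts, had more than 1, and mt-Tm passed the filter through variation B, so its tests are no independent support. Without A1 its log2 fold change was 5.40 (adjusted p = 0.000176), without A2 it was 1.77 with no call (adjusted p = 0.162), and with all libraries it was called by library totals (adjusted p = 0.0174) and with no filter (0.0389). Neither overlapped between the variations.

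As a class, the 10 tested tRNAs had a median log2 fold change of 4.31, or 3.25 with mt-Tf set to its bound, and all 10 lay above 0, a sign that the filter largely fixed for those passing through variation B. Scaling to the mitochondrial total left 9 tested with a median of 2.26, and mt-Ta lay below 0 at -0.63. By library totals the median of the 10 was 5.77. Relative to the median of all genes, the tRNA median stood 4.26, 4.06 and 4.28 higher under TMM, the mitochondrial total and library totals. Normalised CPM of both variation B libraries exceeded all 3 variation A libraries for 14 of the 19 tested mitochondrial genes and lay below them for 0, where 31.2% and 26.7% of all genes tested did so. The 14 were all 10 tRNAs, and mt-Nd1, mt-Nd4, mt-Nd6 and mt-Cytb among the mRNAs. For tRNAs that passed through variation B the filter largely fixed this order too, so the 14 are a description and no independent support.

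**Figure D3:**
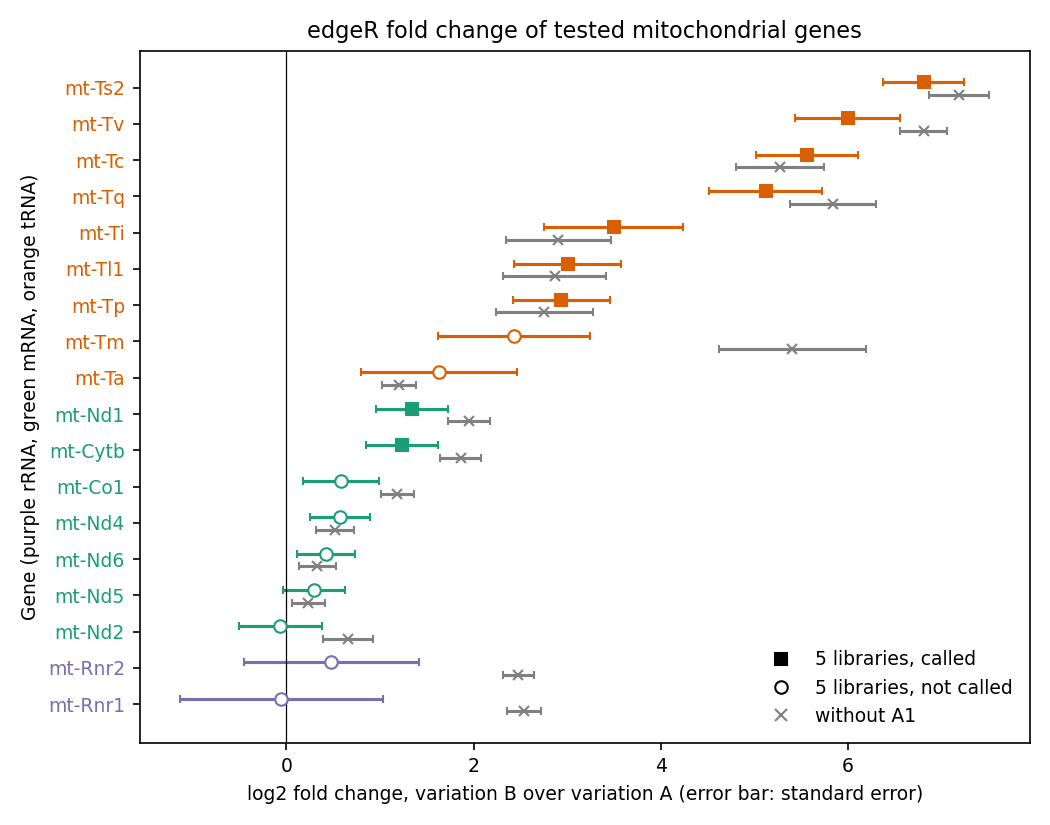
Log2 fold change of variation B over variation A from edgeR with its standard error, for all tested mitochondrial genes except mt-Tf, which had no count in variation A. Filled squares are called and open circles are not, and grey crosses give the fit without A1, which puts mt-Rnr1 at 2.53 and mt-Rnr2 at 2.48.

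The make-up of the tRNA counts differed between libraries of variation A (the plot of tRNA make-up). In A2 and A3, mt-Ta was the most counted tRNA, with 76.4% and 86.4% of tRNA counts, and mt-Tv held 10.6% and 7.77%. In A1, mt-Tv held 56.6%, mt-Tq 12.5% and mt-Ta 9.56%. The variation B libraries were close to each other, with 59.9% and 59.4% for mt-Tv, 18.1% and 18.0% for mt-Ts2, 8.97% and 12.0% for mt-Ta and 8.46% and 6.14% for mt-Tq. The tRNA share of A1 rests on 136 reads, that of A2 on 348 and that of A3 on 103. Per kilobase, mt-Tv reached 22697 and 18154 normalised CPM in B1 and B2, mt-Ts2 8024 and 6444, mt-Ta 3398 and 3653, and mt-Tq 3114 and 1823. These are levels as counted, without reads that lay over several genes, and stand beside 2837 and 3169 per kilobase for mt-Rnr1 in the same libraries.

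**Figure D4:**
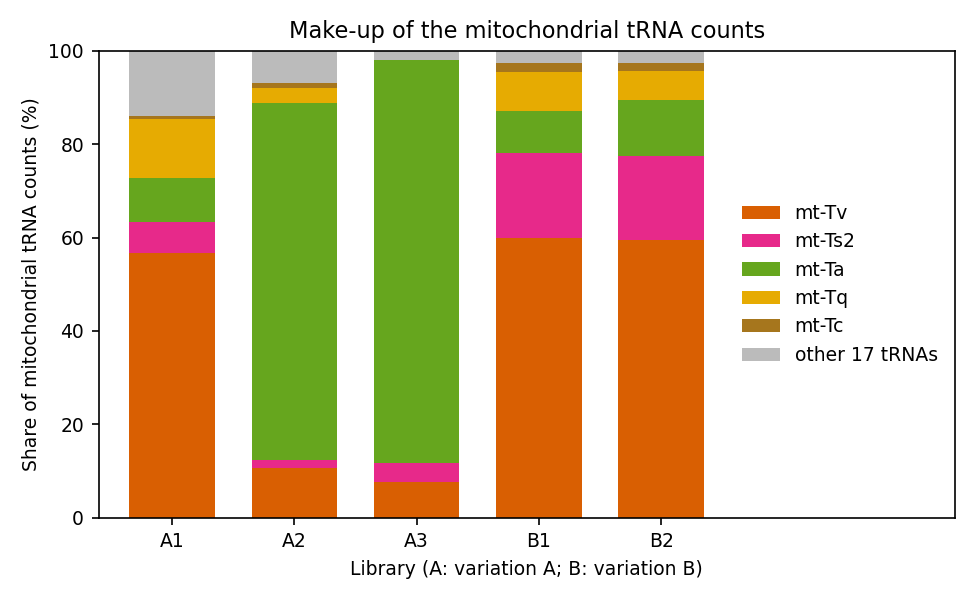
Share of the mitochondrial tRNA counts (percent, stacked to 100) held by 5 named tRNAs and by the other 17 in each library. The alanine tRNA mt-Ta fills most of A2 (76.4%) and A3 (86.4%), and the valine tRNA mt-Tv most of A1 (56.6%), B1 (59.9%) and B2 (59.4%).

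For the rRNAs, no difference between the variations was called, and 1 library set the result. The small-subunit rRNA mt-Rnr1 (chrM:70-1024, plus strand) had 7844 normalised CPM in A1, 485 in A2 and 600.5 in A3, and 2710 and 3027 in B1 and B2. The large-subunit rRNA mt-Rnr2 (chrM:1094-2675, plus strand) had 8224, 865 and 972 against 4537 and 4826. For both genes A1 was the highest of the 5 libraries and A2 and A3 the lowest, so the groups overlapped. Log2 fold changes were -0.054 (SE 1.08, edgeR adjusted p = 0.976) and 0.48 (SE 0.93, edgeR adjusted p = 0.724). Without A1 they were 2.53 (SE 0.18, adjusted p = 9.84e-07) and 2.48 (SE 0.17, adjusted p = 7.29e-07), and both were called higher. What sets A1 apart was not tested.

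Of the 13 mRNAs, 7 had counts, and all 7 were detected in every library. They encode subunits of complex I (mt-Nd1, mt-Nd2, mt-Nd4, mt-Nd5 and mt-Nd6), the core of complex III (mt-Cytb) and the catalytic subunit of complex IV (mt-Co1). Only mt-Nd1 and mt-Cytb were called, and the median log2 fold change of the 7 was 0.58. Relative to the mitochondrial total the median was -1.31 and all 7 lay below 0, and in library totals alone it was 1.94 with all 7 above 0. Those scalings moved the median of all genes to -1.80 and 1.50, so relative to all genes the mRNA median stood at 0.53, 0.49 and 0.45 higher under TMM, the mitochondrial total and library totals.

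The complex I subunit mt-Nd1 (chrM:2751-3707) had 65.7, 29.1 and 35.4 normalised CPM in variation A and 94.7 and 127 in variation B (log2 fold change 1.34, SE 0.38, edgeR adjusted p = 0.0373). Cytochrome b, mt-Cytb (chrM:14145-15288), had 83.5, 32.6 and 53.1 against 136 and 130 (1.23, SE 0.39, edgeR adjusted p = 0.0498). Both groups were apart for both genes. These calls are near the threshold: leaving out A2, A3, B1 or B2 ended each of them, with adjusted p from 0.124 to 0.258 for mt-Nd1 and from 0.145 to 0.218 for mt-Cytb, whereas without A1 they were 3.21e-05 and 3.61e-05, with log2 fold changes of 1.95 and 1.86. With all libraries, a test against a fold change of 2 called neither (adjusted p = 0.323 and 0.418), and mt-Cytb also lost its call with upper-quartile scaling (0.0661) and at equal depth (0.104). Scaled to the mitochondrial total, both lay below 0, at -0.072 and -0.20.

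None of the other mRNAs was called with all libraries and TMM scaling. By library totals mt-Co1, mt-Nd4, mt-Nd5 and mt-Nd6 were called higher, where 55.0% of all genes were. The catalytic subunit mt-Co1 (chrM:5328-6872) had 332, 137 and 180 normalised CPM in variation A and 340 and 310 in variation B, so A1 lay among the variation B values (log2 fold change 0.59, SE 0.40, edgeR adjusted p = 0.306). Without A1 it was called at 1.19 (adjusted p = 0.000235). For mt-Nd5 (chrM:11742-13565) the values were 206, 319 and 313 against 308 and 374, which overlapped (0.29, SE 0.33, edgeR adjusted p = 0.535). Here A1 was the lowest library, the opposite of its place for the rRNAs. The same held for mt-Nd4 (chrM:10167-11544), with 32.6, 46.9 and 57.5 against 59.4 and 74.6 (0.58, SE 0.32, edgeR adjusted p = 0.211). It held too for mt-Nd6 (chrM:13552-14070, minus strand), with 33.1, 55.8 and 44.3 against 56.2 and 63.4 (0.43, SE 0.31, edgeR adjusted p = 0.33). Last, mt-Nd2 (chrM:3914-4951) had 39.0, 16.7 and 13.3 against 22.9 and 22.6, with A1 highest and the groups overlapping (-0.065, SE 0.44, edgeR adjusted p = 0.924). Without A1 the log2 fold change of mt-Nd2 turned to 0.66 and was not called (edgeR adjusted p = 0.0695). The genes at which A1 was the highest variation A library were thus mt-Nd1, mt-Nd2, mt-Co1 and mt-Cytb, and those at which it was the lowest mt-Nd4, mt-Nd5 and mt-Nd6.

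The 15 genes with 0 counts in every library were 6 mRNAs and 9 tRNAs, and 11 of them form one unbroken run in the genome (the plot of counts per base in genome order). The run holds mt-Ts1, mt-Td, mt-Co2, mt-Tk, mt-Atp8, mt-Atp6, mt-Co3, mt-Tg, mt-Nd3, mt-Tr and mt-Nd4l, that is, both ATP synthase subunits of this genome, the other core subunits of complex IV, 2 small subunits of complex I and 5 tRNAs. A near-identical nuclear copy of this stretch is annotated, by pseudogenes that cover part of it, on the minus strand of chromosome 1. Its 7 pseudogenes aligned with chrM from base 6390 to base 11042, and their aligned bases lie within chr1:24611535-24616188. Each match was 99.71% to 100% identical, the 2 spans being 4653 and 4654 bases long. All 11 members that lie wholly inside the copied stretch had 0 counts, against 4 of the 26 that do not. Reads with several alignments were not counted by the authors, and their part in these zeros was not tested, so a 0 at these 11 genes is not read as absence of their RNA.

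**Figure D5:**
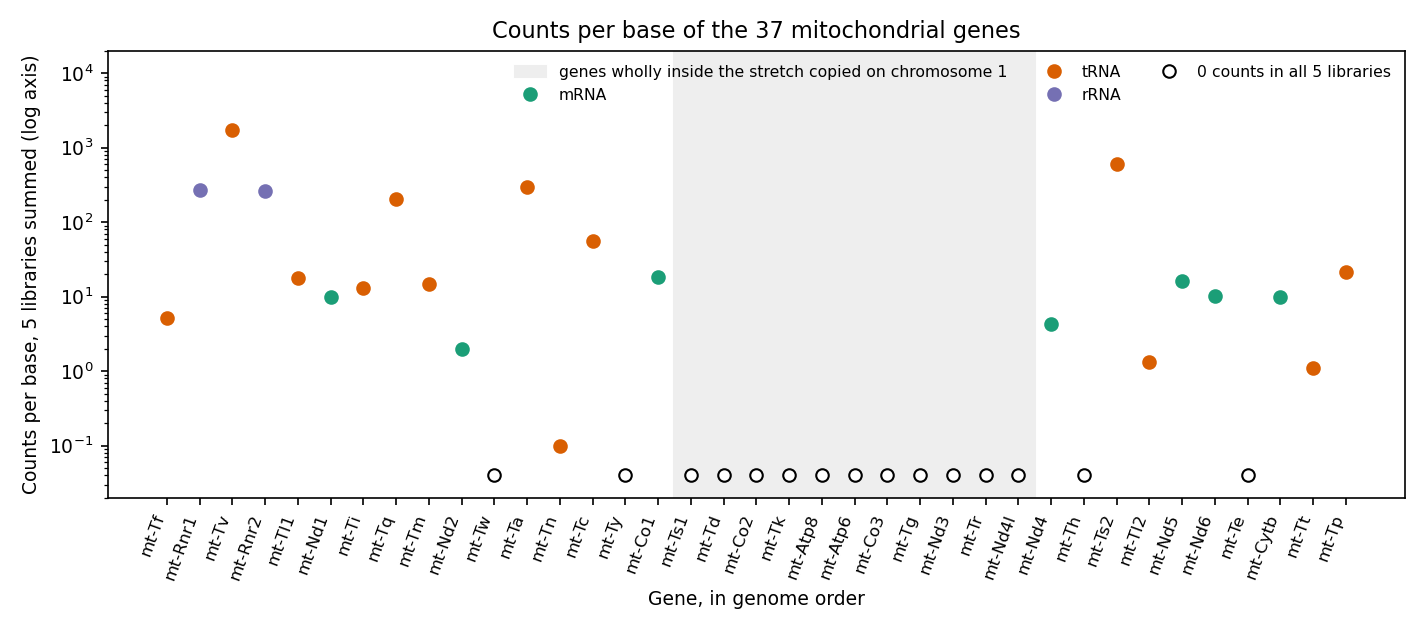
Counts per base summed over the 5 libraries (log axis) for the 37 mitochondrial genes in genome order, with open circles for genes at 0. The shaded genes lie wholly inside the stretch copied on chromosome 1, and all 11 are at 0, as are mt-Tw, mt-Ty, mt-Th and mt-Te outside it.

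One pair shows how few bases separate the copies. The pseudogene Gm28438 on chromosome 1 aligned with mt-Nd3 over 345 bases with 1 mismatch, T3C, counted from the first base of mt-Nd3, with the base of mt-Nd3 first. The first 40 bases of each are shown, with that base in capitals.
mt-Nd3, chrM:9459-9498, plus strand: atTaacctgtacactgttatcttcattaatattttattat
Gm28438, chr1:24613080-24613119, minus strand: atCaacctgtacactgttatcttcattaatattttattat
Reads assigned to Gm28438 numbered 19, 44 and 18 in variation A and 118 and 159 in variation B, where mt-Nd3 had 0 in all. Over the aligned bases only that base tells the pair apart, and whether these reads came from the nuclear copy or from mt-Nd3 was not tested. The other 6 pseudogenes of the run had 0 or 1 count in each library. Of mt-Atp8 only 43 of 204 bases matched a pseudogene of the run. The tRNA genes inside the stretch have no annotated nuclear partner. The nuclear sequence of these tRNA genes and of the rest of mt-Atp8 in the run was not analysed here.

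Partly inside the copied stretch lie mt-Co1, with 1062 of its 1545 bases outside it, and mt-Nd4, with 502 of 1378 outside. Where along these genes their reads lie was not analysed here. Over the whole gene length, mt-Nd4 took 6.23% of the summed per-kilobase counts of the mRNAs on average over the 5 libraries, and mt-Co1 25.8%. Over only the bases outside the stretch, an alternative chosen after seeing the data, they took 13.9% and 30.6%. Per kilobase outside the stretch, mt-Co1 was the most counted mRNA in A1, B1 and B2, where it took 42.6%, 33.5% and 28.2%, and mt-Nd5 in A2 (30.2%) and A3 (26.9%). The least counted in every library was mt-Nd2, at 2.01% to 5.13%.

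The other 4 genes at 0 were the tryptophan, tyrosine, histidine and glutamate tRNAs mt-Tw, mt-Ty, mt-Th and mt-Te. Some of them lie beside tRNAs with many counts. In the stretch between mt-Nd2 and mt-Co1, mt-Ta had 9645 and 10692 counts in B1 and B2 and mt-Tc 2021 and 1631, while mt-Tn between them had 6 and 1, and mt-Tw and mt-Ty at the ends had 0. Next to mt-Ts2, with 19476 and 16127 counts in B1 and B2, mt-Th had 0. A count of 0 in all libraries is below detection as counted here and is no proof of absence. Reads with several alignments or over more than 1 gene were not counted, and their part in these zeros was not tested.

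Nuclear genes for proteins that copy, cut, modify, translate or charge mitochondrial RNA were counted beside these, from a list of 90 symbols. Of 87 that matched, 83 were tested, 5 were called higher and 7 lower, beside 11.0% and 12.4% of all genes. How the list stands to all genes depended on the settings, since DESeq2 called 4 of 87 higher and 8 lower, beside 4.35% and 6.65% of all genes, and edgeR with no filter 5 and 6 of 87, beside 4.82% and 3.50%. The median log2 fold change of the 83 was -0.15, against 0.045 over all genes. Most changed was Mrm1, a methyltransferase of the large mitochondrial rRNA, with 9.88, 39.1 and 16.2 normalised CPM in variation A and 949 and 735 in variation B (log2 fold change 5.23, SE 0.57, edgeR adjusted p = 0.00136). Rexo2, which degrades short RNAs in mitochondria, was higher as well (2.20, SE 0.62, edgeR adjusted p = 0.0365), with values of 69.7, 19.8 and 11.8 against 112 and 212.

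Lower in variation B were the mitochondrial elongation factor Tsfm (-2.19, edgeR adjusted p = 0.0156), the seryl-tRNA synthetase Sars2, which charges both mitochondrial serine tRNAs (-2.09, adjusted p = 0.0175), the tRNA wobble-base enzyme Gtpbp3 (-2.01, adjusted p = 0.0357) and Fastk, a regulator of mitochondrial RNA (-1.79, adjusted p = 0.0338). Sars2 had 7.90, 9.69 and 11.8 normalised CPM in variation A and 1.97 and 2.50 in variation B, while mt-Ts2 went the other way and mt-Ts1 had no counts. Of the exon bases of Fastk 1242 overlap other genes, and 165 of Tsfm do, and the counting did not use strand. The counts of calls in this list depend on the libraries: without A1 10 of 84 were higher and 13 lower, where 20.8% and 15.0% of all genes were, and without any one of the other 4 libraries 1 was higher and 0 lower, where 1.55% to 3.57% and 1.32% to 3.86% were.

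Scaled to the mitochondrial total, in place of the TMM factors, a fold change says whether a gene took more of the mitochondrial counts. Of 10859 genes tested, 0.175% were called higher and 3.70% lower in variation B on that scale. Among 18 mitochondrial genes tested, mt-Ts2 (log2 fold change 5.20, SE 1.53, edgeR adjusted p = 0.024) and mt-Tv (4.81, SE 1.53, edgeR adjusted p = 0.0453) were called higher and none lower. Next were mt-Tq at 4.14 (adjusted p = 0.063) and mt-Tc at 4.05 (adjusted p = 0.0984), which did not pass.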

How the data were processed

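Surface-seq was measured in 5 EL4 libraries, 3 of variation A and 2 of variation B, grouped by the library names in the labels. Per the labels and methods, the authors used Trimmomatic 0.36 for trimming, STAR 2.7.3a for alignment to GRCm38, and featureCounts 1.6.4 for counting reads on GENCODE M24 exons. Deposited values are raw counts per gene. Strand was not used, and reads with several alignments or over more than 1 gene were not counted. How many reads this left out was not analysed here.

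Symbols and classes came from GENCODE M21 by identifier (55144 of 55385 genes, all 37 mitochondrial genes with the same positions). The fit used edgeR 4.0.16 under R 4.3.3 (TMM after filterByExpr, quasi-likelihood test, Benjamini-Hochberg adjustment over all genes tested), and normalised CPM uses totals scaled by the TMM factors (0.571 to 1.88). DESeq2 1.42.0, the tool the study used, was an alternative. Tested on simulated counts of 10287 genes with 200 changed by a fold of 4, edgeR called 96% of the changed genes, with 4.95% of its calls false. The simulation gave every gene the same spread and set no library apart, so these rates need not hold for the real libraries. Shares and log2 ratios were compared by exact permutation over libraries (Python 3.11.15), with Wilson intervals at 95% from scipy 1.17.1. Nuclear copies were searched with blastn 2.17.0 among annotated transcripts, with at least 30 aligned bases at 90% identity, and a match of at least 200 bases at 99.5% set the copied stretch. No 2 libraries agreed within sampling noise.

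The members and lists were chosen with earlier results of these data known. All 37 genes were accounted for, with values in every library for rRNAs, mRNAs and tRNAs that passed the filter. Sequences were printed for the called tRNAs, and of the nuclear factors the 6 called with the largest changes were named. Alternatives covered scaling, filters, tool, replicate block, depth, genes left out and each library left out.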

Additional observations from a re-analysis of the deposited data

How the results depend on the processing

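The 10 mitochondrial genes called higher became 16 by library totals, where 55.0% of all genes were called higher, 2 scaled to the mitochondrial total (0.175%) and 2 with at least 10 counts in every library (12.9%), where 9 could be tested. Leaving out 1 library gave 4 (without B1) to 15 (without A1). With the replicate number as a block (replicate block) 10 were called, all tRNAs, mt-Ta and mt-Tm among them (adjusted p = 0.000182 and 0.0188), where 7.40% of all genes were called higher, and mt-Nd1 and mt-Cytb were not (adjusted p = 0.0766 and 0.0715). Same-numbered libraries did not deviate together (r = -0.10 and -0.03), so the numbers give no sign of pairing. By DESeq2 10 were called (4.35% of all genes), and 8 by testing against a fold change of 2 (2.81%) and at equal depth (9.91%). Nuclear factors called higher went from 5 to 36 of 83 by library totals (55.0% of all genes), 0 by the mitochondrial total, 2 of 29 with at least 10 counts everywhere, 2 of 83 with the replicate block, 1 of 83 against a fold change of 2 and 3 of 62 at equal depth, the shares of all genes being those just given, and 1 to 10 without single libraries. Those called lower went from 7 to 0 by library totals (2.94% of all genes) and by the mitochondrial total (3.70%), 4 with the replicate block (7.90%), 0 against a fold change of 2 (3.77%) and 6 of 29 with at least 10 counts everywhere (15.7%), and 0 to 13 without single libraries.

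Reversed signs were these. By library totals mt-Rnr1 was at 1.09 and mt-Nd2 at 1.29, by DESeq2 0.0086 and 0.012, with no filter 0.12 and 0.13, and without single libraries mt-Rnr1 ran from -0.51 to 2.53 and mt-Nd2 from -0.25 to 0.66. For mt-Rnr1 it was 0.094 with at least 10 counts everywhere and 0.55 with the replicate block. Scaled to the mitochondrial total, mt-Rnr2 was at -0.017, mt-Nd1 -0.072, mt-Ta -0.63, mt-Co1 -0.83, mt-Nd4 -1.37, mt-Nd5 -1.64, mt-Nd6 -1.50 and mt-Cytb -0.20. The log2 ratio of rRNA to mRNA turned to -0.12 without overlapping genes, and that of minus-strand to plus-strand genes to -0.46 per kilobase. Without single libraries the latter ran from -0.68 to 1.75 and that of mt-Rnr1 to mt-Rnr2 from -0.33 to 0.056. Causes were not tested. Differences of shares (smallest with totals scaled by TMM) and the ratio of tRNA to mRNA kept their direction in all alternatives. The tRNA values of variation A rest on 103 to 348 counts in each library.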
